A study of Mus musculus with 31 samples.

Results

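Respiratory complex I is the first enzyme of the mitochondrial respiratory chain, and its nuclear-encoded subunits and assembly factors were followed here in single 2-cell mouse embryos. The members were all genes of the count table whose symbol starts with Ndufa, Ndufb, Ndufc, Ndufs, Ndufv, Ndufaf or Ndufab. There were 49 of them among 20544 gene symbols. The rule reads symbols alone. They took from 0.0884% to 0.448% of the counts of an embryo.

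Oocytes of CD1 females aged 8 to 10 weeks were fertilized in vitro with sperm of C57BL/6J males aged 12 to 14 weeks. In the control group (n = 16 embryos) the sperm were kept in IVF-TYH +/+, the medium with glucose and pyruvate. In the SER group (sperm energy restriction and recovery, n = 15 embryos) sperm from the other cauda of the epididymis were kept in IVF-TYH -/-, without these nutrients, until they stopped moving, and were then returned to the complete medium. Only the sperm were treated, no transgene or mutation is named in the labels, and all embryos were collected at 32 h after insemination. The comparison asks whether the history of the sperm is seen in the RNA of the late 2-cell embryo.

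Complex I takes electrons from NADH and hands them to ubiquinone while it moves protons across the inner mitochondrial membrane. Its N module holds the site that oxidizes NADH, its Q module carries the electrons to ubiquinone, and its membrane arm pumps the protons. Most subunits are encoded in the nucleus, the remaining core subunits of the membrane arm are encoded by mitochondrial DNA, and dedicated assembly factors help to build the complex. The cleavage-stage embryo carries mitochondria inherited from the oocyte, and many of its mRNAs at this stage were also made in the oocyte.

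The libraries were polyA-based, and each embryo is 1 library. Total counts ran from 532945 to 2085222 in control embryos and from 642321 to 3088396 in SER embryos. Levels are given as CPM, the counts of a gene per 1000000 counts of its library, so less RNA of a gene and more RNA of the others cannot be told apart. A count of 0 allows up to 3 counts, or 0.971 to 5.63 CPM depending on the library, for counting error only. The listed oocyte genes Zp1, Zp2, Zp3, Gdf9, Bmp15, Nlrp5, Ooep and Padi6 had counts in all 31 embryos. The sum over 14 cumulus cell markers ran from 18.1 to 252 CPM in control and from 7.79 to 303 CPM in SER embryos, and most of it was Amhr2, while Has2 and Ptx3 had counts in 3 and 1 embryos. The sum over 11 blood markers ran from 0 to 29.1 CPM in control and from 0 to 167 CPM in SER embryos, with all 4 hemoglobin genes at 0 in every embryo. The sum over 11 sperm markers ran from 101 to 282 CPM in control and from 87.1 to 373 CPM in SER embryos. Most of it was Odf2, with means of 174 CPM in control and 189 CPM in SER embryos. Prm2 and Ldhc had counts in 22 and 28 embryos, while Prm1 and Tnp1 had counts in 4 and 6. The part of these other sources in the results was not tested.

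Control replicates 1 and 3 stood apart from the other embryos at the high end, and the main results below are given with and without them. Their complex I members summed to 3054 and 4476 CPM. In the other 14 control embryos the sum was 884 to 2164 CPM, and in the SER embryos 964 to 1531 CPM. Both also had the highest sums of oocyte markers, 9890 and 8986 CPM, against 2747 to 7920 CPM in the other controls and 3579 to 8204 CPM in SER embryos. Their sums of genes of the 2-cell transcription burst, 1330 and 1563 CPM, were above the 42.2 to 723 CPM of the other controls and the 130 to 1124 CPM of SER embryos. The number of genes with a count was 10789 and 10680 in them, at the low end of the range of 10455 to 13220. Their blood markers were at 0, against 7.19 to 29.1 CPM in the other controls. SER embryos ran from 0, in SER replicate 9, to 167 CPM. Control replicate 4 and SER replicate 15 lay apart the other way. As a median over tested members, log2 CPM minus its mean over the 31 embryos was -1.51 and -1.45 in them. In control replicates 1 and 3 this median was 1.46 and 1.96. By the sum over members, though, SER replicate 15 was the highest SER embryo, at 1531 CPM. What sets any of these embryos apart was not tested.

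Promoter sequences are shown for a few members that the values below turn on. For Ndufb8 the lower value in SER embryos spread over many embryos, and for Ndufa4 it rested on 2 controls. Ndufa11 and Ndufaf4 carry the same motif at different places. Ndufa11 varied with the other members while Ndufaf4 did not, and any link of this to the motif was not tested. Each stretch is the 120 bases before the RefSeq transcript start (GRCm38.p6), 5′ to 3′ on the strand of the gene. Capitals mark matches to GCGCANGCG, the motif of NRF1, a transcription factor of nuclear genes for respiration, found here on both strands so that the matches overlap.
Ndufb8, chr19:44555443-44555562, minus strand: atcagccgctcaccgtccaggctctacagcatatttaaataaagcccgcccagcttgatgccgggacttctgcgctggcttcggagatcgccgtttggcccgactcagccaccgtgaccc
Ndufa4, chr6:11907451-11907570, minus strand: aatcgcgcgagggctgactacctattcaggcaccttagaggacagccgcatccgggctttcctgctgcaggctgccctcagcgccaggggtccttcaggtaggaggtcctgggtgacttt
Ndufa11, chr17:56717642-56717761, plus strand: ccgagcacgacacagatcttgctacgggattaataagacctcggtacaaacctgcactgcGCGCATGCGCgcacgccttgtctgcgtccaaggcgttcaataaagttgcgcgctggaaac
Ndufaf4, chr4:24897963-24898082, plus strand: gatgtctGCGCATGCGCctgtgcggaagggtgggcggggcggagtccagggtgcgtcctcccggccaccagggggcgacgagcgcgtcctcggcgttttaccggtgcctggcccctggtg

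RefSeq promoters of 250 bases before to 50 bases after the start were matched for 40 of the 49 members. The NRF1 motif was found on either strand in 10 of these 40 (25.0%), against 17.5% of tested genes with a promoter and 7.03% of all genes in the RefSeq table. The motif AAGATGGCG of YY1 was found in 6 of 40 (15.0%), against 4.19% of tested genes and 1.64% of all genes. The ETS core CCGGAAGT was found in 1 of 40 (2.50%), against 10.7% of tested genes and 4.31% of all genes. The motif TCAAGGTCA of the estrogen-related receptors was in none of the 40, and it was in 0.231% of tested and 0.466% of all genes. A match is a description of letters and not of binding, and these shares were not tested.

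No complex I member passed the threshold between SER and control embryos. The quasi-likelihood test of edgeR, adjusted by Benjamini-Hochberg over all tested genes, gave 0 of 29 tested members an adjusted p under 0.1, and likewise 0 of all 8571 tested genes (0%). At an unadjusted p under 0.05, 6 members were lower in SER embryos and 0 were higher, against 304 genes lower (3.55% of all tested genes) and 187 higher. The estimate, here the log2 fold change of SER against control, was below 0 for 23 of 29 members, with a median of -0.42, while 47.3% of all tested genes were below 0, with a median of 0.02. The members that passed the filter on low counts are not all members, and the other 20 had too few counts to be tested.

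The median moved with control replicates 1 and 3. Without them, 17 of 29 members were below 0, the median was -0.11 and 1 member had an unadjusted p under 0.05. Leaving out only control replicate 3 gave a median of -0.31, and leaving out only control replicate 1 gave -0.35. Low embryos moved it the other way. Without control replicate 4 alone the median was -0.51, with 24 of 29 members below 0. Without SER replicate 15 alone it was -0.54, with 23 of 29 below 0. The fit without control replicates 1 and 3 leaves out only high embryos, all of them controls. Exon length moved with the estimates too. The 1710 tested genes with the shortest exons (354 to 2640 bases) had a median estimate of -0.16 and the 1710 with the longest had 0.11. The short group held 18 of the 29 members and the long group held 0, and the median exon length was 2101 bases for members against 4693 for all tested genes. With a trend on exon length removed from each embryo, the median of the members was -0.19. Per the paper, the sequenced control and SER embryos formed 3 separate batches. The labels do not name the batch of each embryo, so no fit could adjust for it.

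**Figure D1:**
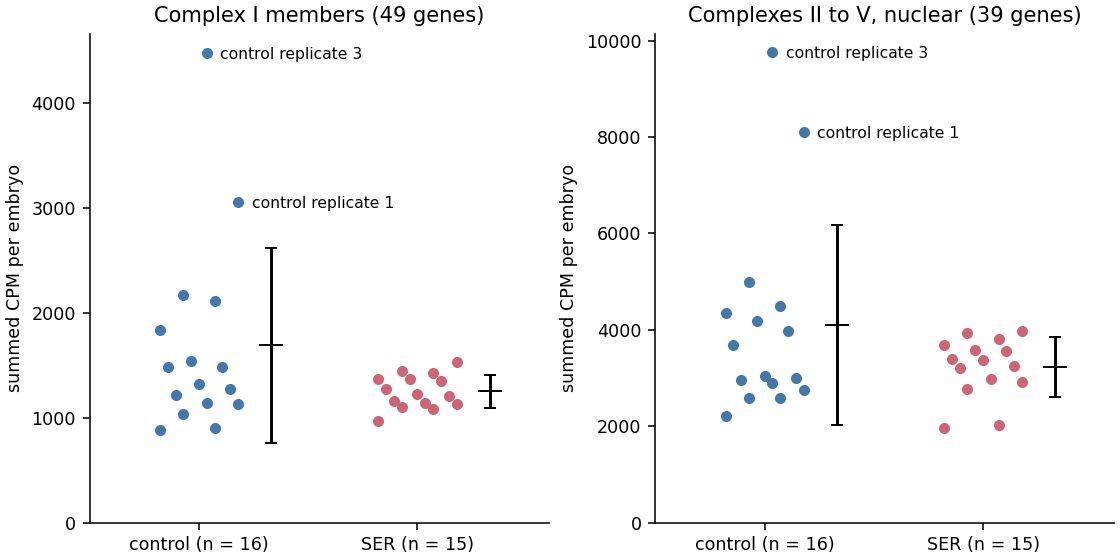
Summed CPM per embryo (vertical axis, from 0) of the 49 complex I members, left, and of the 39 nuclear genes of complexes II to V in the table, right, in control (n = 16) and SER (n = 15) embryos. Each point is 1 embryo, and the bar beside each group is its mean with 1 SD; control replicates 1 and 3 lie above all other embryos in both plots, and the other points of both groups overlap.

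The sum over all 49 members described the same embryos. It ran from 884 over a median of 1403 to 4476 CPM in control and from 964 over a median of 1228 to 1531 CPM in SER embryos. The means were 1690 ± 931 CPM (SD, n = 16) and 1251 ± 160 CPM (SD, n = 15). The groups overlapped, and the control range enclosed the SER range at both ends. Without control replicates 1 and 3 the control mean was 1394 ± 408 CPM (SD, n = 14), with a median of 1298 CPM.

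In the N module, the core subunits showed no common direction. Ndufv1 carries the flavin that takes the electrons from NADH, Ndufs1 is the large iron-sulfur subunit, and Ndufv2 holds a further iron-sulfur cluster. Ndufv1 ran from 0 over 15.0 to 52.1 CPM in control and from 0 over 11.01 to 45.6 CPM in SER embryos (lowest, median and highest). It had 0 counts in 3 control and 2 SER embryos, among them control replicates 1 and 3, where the members together were highest. The estimate for Ndufv1 was 0.08 (SE 0.65, adjusted p = 0.993 by edgeR), and the groups overlapped over their whole range. Ndufs1 ran from 1.89 over 9.39 to 42.9 CPM in control and from 0.779 over 12.3 to 50.5 CPM in SER embryos, with 11 of 15 SER embryos above the control median. By edgeR the estimate was 0.45 (SE 0.46, adjusted p = 0.958), 0.81 without control replicates 1 and 3, and 0.27 without SER replicate 10. Ndufv2 ran from 10.1 over 30.7 to 102 CPM in control and from 7.78 over 29.8 to 62.4 CPM in SER embryos, with nearly the same medians. The estimate of -0.30 (SE 0.35) became 0.12 without these embryos.

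The 3 tested accessory subunits of the N module had negative estimates with all embryos, and 2 of them were among the 6 members with the lowest p. Ndufa2, a small subunit with a thioredoxin-like fold, ran from 4.53 over 62.8 to 430 CPM in control and from 8.18 over 56.7 to 125 CPM in SER embryos. Control replicates 3 (430 CPM) and 1 (386 CPM) were the highest embryos, and the medians of the groups were close. With all embryos edgeR gave -1.11 for the log2 fold change (SE 0.46, adjusted p = 0.778), without both embryos -0.35, and with the exon length trend removed -0.27. Ndufs4, whose loss in mice is a model of Leigh syndrome, ran from 0 over 7.93 to 76.8 CPM in control and from 1.95 over 7.20 to 15.2 CPM in SER embryos. Control replicates 5 and 3 reached 76.8 and 51.7 CPM, and the remaining controls, from 0 to 25.6 CPM, enclosed all SER embryos. Its estimate was -1.08 (SE 0.52, adjusted p = 0.868 by edgeR), -0.71 without control replicate 5 and -0.68 without control replicates 1 and 3. For Ndufv3, the third of them, the estimate was -0.74 (SE 0.69), and control replicate 3 was its highest embryo at 135 CPM. Without that embryo the estimate for Ndufv3 was 0.055.

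In the Q module, which carries the electrons from the iron-sulfur clusters to ubiquinone, 4 of 8 members were tested and all 4 estimates were below 0, with a median of -0.47. When control replicates 1 and 3 were left out, 2 of the 4 were below 0 and the median was 0.011. Ndufs8, a subunit with a pair of iron-sulfur clusters, ran from 1.95 over 68.1 to 201 CPM in control and from 7.01 over 67.6 to 144 CPM in SER embryos. Here control replicate 3 was the lowest of all embryos, at 1.95 CPM, while control replicate 1 was at 177 CPM. For Ndufs8 edgeR gave -0.32 (SE 0.40) on the log2 scale, -0.15 without control replicate 1 and -0.17 without control replicate 12.

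Ndufs7 and Ndufs3 of the Q module had too few counts to be tested. Ndufs7, which holds the last iron-sulfur cluster before ubiquinone, had 367 counts over all embryos, 12.7 ± 14.0 CPM in control (SD, n = 16) and 6.25 ± 5.79 CPM in SER embryos (SD, n = 15). Ndufs3 had 359 counts and was found in all 31 embryos, at 8.16 ± 6.44 CPM in control (SD, n = 16) and 9.72 ± 5.46 CPM in SER embryos (SD, n = 15). For both genes the difference of the means was smaller than the SD of the control group.

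The membrane arm, in which the accessory subunits surround the proton-pumping core, held 19 members, of which 12 were tested. The estimate was below 0 for 9 of the 12, with a median of -0.41. Without control replicates 1 and 3 it was below 0 for 7 of the 12, with a median of -0.030. Ndufb8 and Ndufb6, both accessory subunits of the distal part, were among the lowest p. Ndufb8 (chromosome 19, 44548572 to 44555440) ran from 30.2 over 61.6 to 146 CPM in control and from 9.16 over 34.6 to 92.1 CPM in SER embryos. In 13 of 15 SER embryos it lay below the control median, while the groups overlapped between 30.2 and 92.1 CPM. The means were 66.5 ± 29.4 CPM (SD, n = 16) and 38.99 ± 22.3 CPM (SD, n = 15). For Ndufb8 the log2 fold change was -0.82 (SE 0.28, adjusted p = 0.538 by edgeR). Control replicates 1 and 3 were not the highest embryos here, at 76.7 and 83.9 CPM, and without them the log2 fold change was -0.72 (SE 0.28, adjusted p = 0.863 by edgeR). Of the 31 embryos, Ndufb8 was highest in control replicate 5.

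Ndufb6 had the highest level per length of all members, 169 CPM per kb of exon. It ran from 51.3 over 106 to 394 CPM in control and from 21.4 over 77.7 to 144 CPM in SER embryos. Control replicates 3 and 1 were highest, at 394 and 241 CPM, and 11 of 15 SER embryos lay below the control median. In the edgeR test the estimate was -0.77 (SE 0.29, adjusted p = 0.698), -0.38 (SE 0.24) without control replicates 1 and 3, and -0.28 with the exon length trend removed. Of its 659 exon bases, 257 overlap Smim27 on the opposite strand, and the sources used here do not give the strand setting of the counting, so reads of these genes cannot be told apart there.

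Ndufa11 and Ndufa1 of the proximal membrane arm were next in level per length after Ndufb6 and Ndufa2. Ndufa11 ran from 1.51 over 79.7 to 269 CPM in control and from 0 over 59.8 to 177 CPM in SER embryos. The SER embryos lay below the control median in 13 of 15, yet control replicate 4 (1.51 CPM) was nearly as low as the lowest SER embryo, and the groups overlapped. The estimate for Ndufa11 was -0.87 (SE 0.44, adjusted p = 0.869 by edgeR), -0.57 without control replicates 1 and 3, and -0.38 with the exon length trend removed. Ndufa1, a small subunit encoded on chromosome X, ran from 2.51 over 19.9 to 157 CPM in control and from 1.15 over 18.5 to 49.6 CPM in SER embryos. An estimate of -0.80 (SE 0.51) with all embryos was 0.067 without control replicates 1 and 3, which were its highest embryos at 103 and 157 CPM. It was also above 0, at 0.10, with the exon length trend removed.

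Among the members of the membrane arm nearest to no change were Ndufb7, a distal subunit on the intermembrane side, and Ndufa10, a proximal subunit with a nucleoside kinase fold. Ndufb7 ran from 0 over 14.0 to 50.7 CPM in control and from 0 over 15.2 to 52.1 CPM in SER embryos. It had 0 counts in 2 control and 4 SER embryos, so single embryos covered nearly the same range in both groups. Its estimate was 0.06 (SE 0.70). Ndufa10 ran from 33.8 over 85.7 to 211 CPM in control and from 31.6 over 93.1 to 505 CPM in SER embryos. SER replicate 15 alone reached 505 CPM, and without that embryo the log2 fold change of Ndufa10 turned from 0.07 (SE 0.34) to -0.39. Control replicate 1 was the lowest control embryo for Ndufa10.

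Assembly factors are not part of the finished complex, and 5 of the 8 listed were tested, 4 with an estimate below 0 and with a median of -0.42. Leaving out control replicates 1 and 3 gave 4 of the 5 below 0, with a median of -0.25. Ndufaf2, which binds a late intermediate in the place later taken by Ndufa12, had the lowest p of all members. It ran from 19.7 over 53.1 to 198 CPM in control and from 11.1 over 33.8 to 52.1 CPM in SER embryos. All 15 SER embryos lay below the control median, while the lower controls fell inside the SER range. The means were 58.5 ± 41.1 CPM (SD, n = 16) and 33.8 ± 13.6 CPM (SD, n = 15). The log2 fold change was -0.90 (SE 0.30, p = 0.0051, adjusted p = 0.525 by edgeR). Control replicate 3 was highest at 198 CPM, and the log2 fold change was -0.58 without it and -0.50 (SE 0.25) without control replicates 1 and 3. Of the 2978 exon bases of Ndufaf2, 1955 overlap B230220B15Rik on the opposite strand.

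Ndufaf4, an early assembly factor, ran from 68.5 over 150 to 303 CPM in control and from 50.5 over 116 to 546 CPM in SER embryos. The highest embryo was SER replicate 15, and 11 of 15 SER embryos lay below the control median. Its edgeR estimate was -0.32 (SE 0.30, adjusted p = 0.950), and -0.69 (SE 0.25, adjusted p = 0.351) without SER replicate 15. Ndufaf7, a methyltransferase among the assembly factors, ran from 0 over 36.1 to 104 CPM in control and from 10.9 over 53.1 to 97.3 CPM in SER embryos. In SER embryos 10 of 15 lay above the control median, and the log2 fold change was 0.54 (SE 0.46, adjusted p = 0.936 by edgeR).

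These last members were named because another test called them. With limma voom and sample quality weights, which give less weight to embryos far from the model, 3 members had an adjusted p under 0.1, among 848 of 8571 genes (9.89%). Ndufb8 (log2 fold change -0.71, adjusted p = 0.0945 by limma) and Ndufaf4 (-0.62, adjusted p = 0.0633 by limma) were lower in SER embryos. Ndufaf7 (1.21, adjusted p = 0.0962 by limma) was higher. With those weights 13 of 29 members were below 0, and the median was 0.039. DESeq2 called 0 of the 26 members to which it gave an adjusted p, among 49 of 7241 genes (0.677%). It gave none to Ndufs1, Ndufs4 and Ndufv1.

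Ndufa4 had the largest log2 fold change of the tested members with all embryos, and it changed most without both high controls. It is named after complex I and is now placed in complex IV. It ran from 10.6 over 38.95 to 871 CPM in control and from 7.77 over 39.6 to 136 CPM in SER embryos. Control replicates 3 and 1 stood at 871 and 457 CPM, and the next highest control embryo was at 127 CPM. The log2 fold change was -1.55 (SE 0.54, adjusted p = 0.586 by edgeR) with all embryos, -0.70 without control replicate 3, and 0.16 without both. DESeq2 gave 0.14 and voom gave 0.087.

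**Figure D2:**
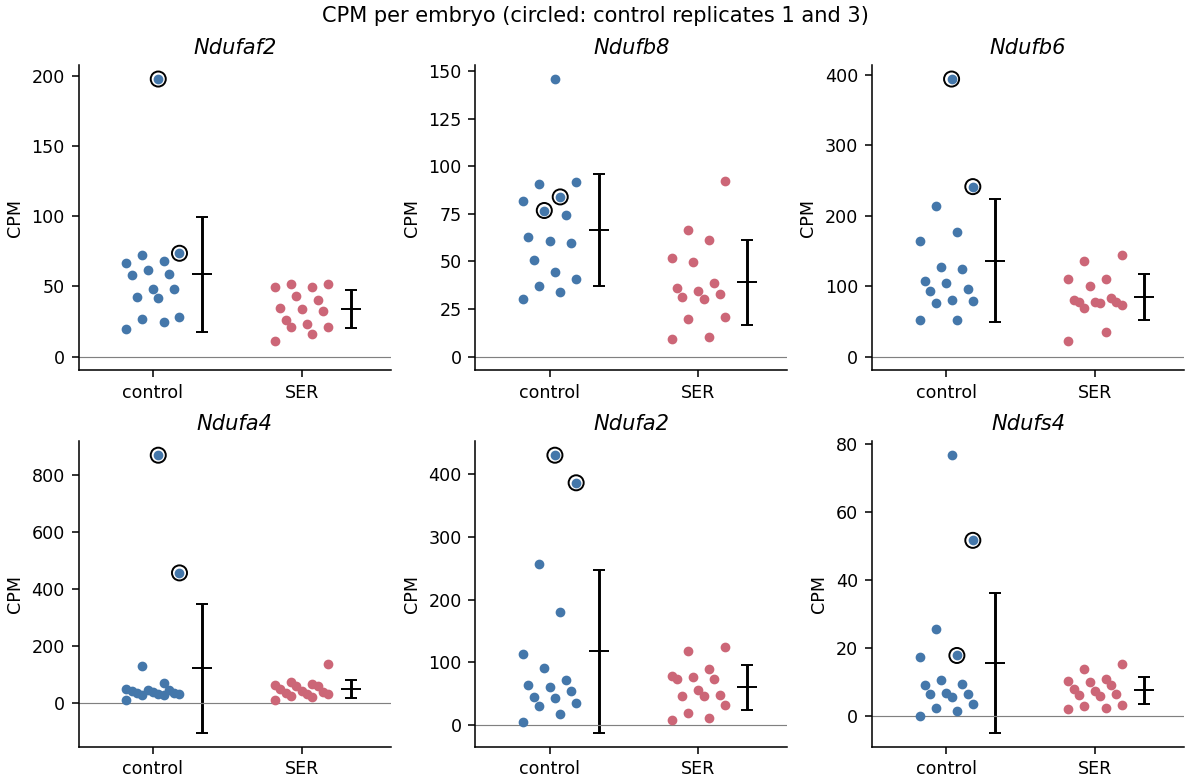
CPM per embryo (vertical axis) of the 6 members with the lowest p, in control (n = 16, blue) and SER (n = 15, red) embryos, with the group mean and 1 SD beside the points. Circles mark control replicates 1 and 3, which lie far above the rest for Ndufa4 (457 and 871 CPM) and within the other controls for Ndufb8 (76.7 and 83.9 CPM).

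Read against each other, the 6 lowest-p members fell into those with a shift over many embryos and those led by few. For Ndufaf2 and Ndufb8, 15 and 13 of 15 SER embryos lay below the control median. For Ndufa4, Ndufa2 and Ndufs4 the counts were 7, 8 and 9 of 15, and Ndufb6 was between them with 11. None of the 6 had groups that did not overlap. Without control replicates 1 and 3 the estimate for Ndufaf2 moved from -0.90 to -0.50, and that for Ndufb8 from -0.82 to -0.72.

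**Figure D3:**
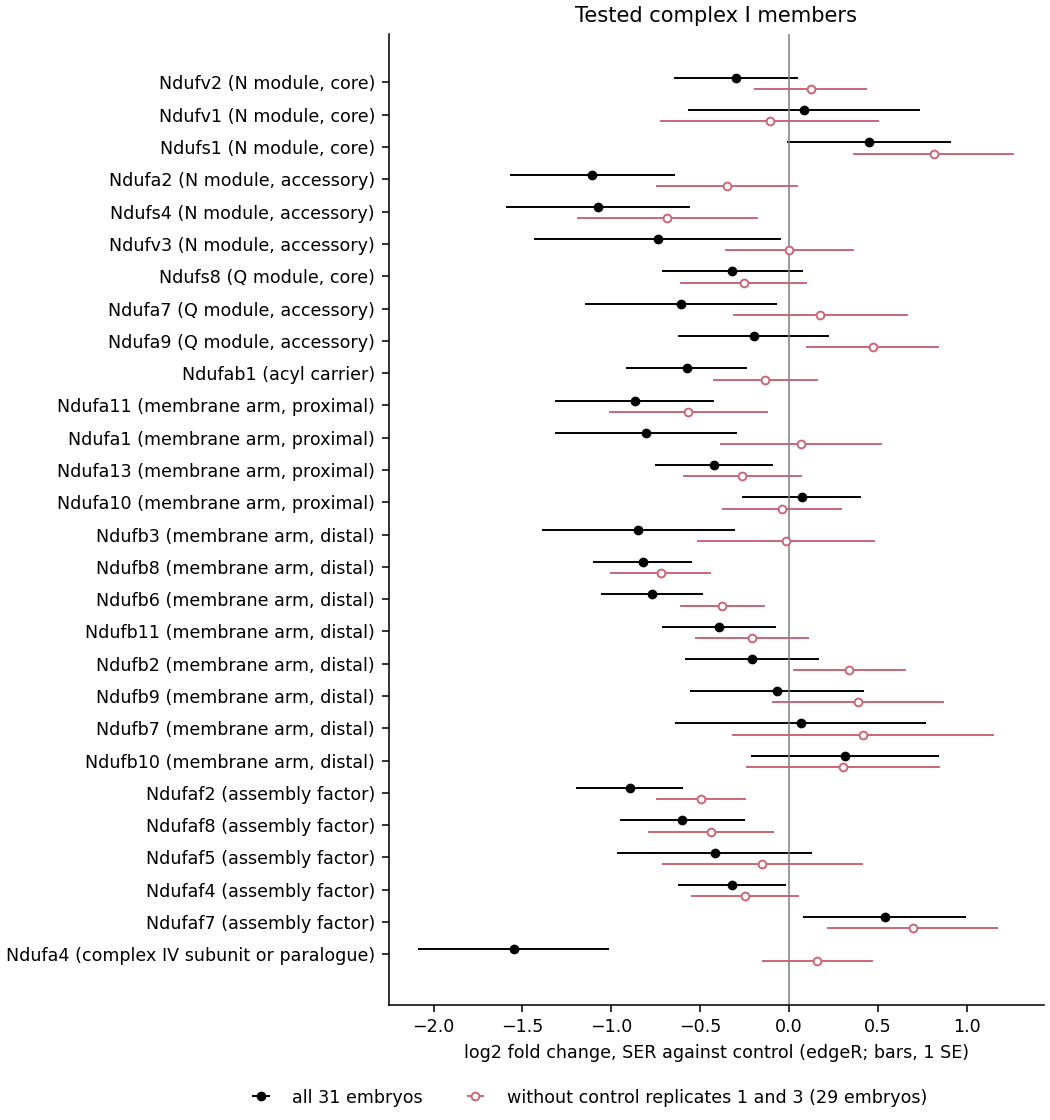
The log2 fold change of SER against control (horizontal axis, edgeR, bars are 1 SE) for 28 of the 29 tested members, ordered by role, with all 31 embryos (filled points) and without control replicates 1 and 3 (open points). With all embryos 22 of these 28 lie below 0 and without these controls 16 do, and Ndufa4 moves furthest, from -1.55 to 0.16.

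A further 12 tested members, Ndufv3 included, were 3 of the N or Q module, 6 of the membrane arm, 2 assembly factors and the acyl carrier protein Ndufab1. They had estimates from -0.85 (Ndufb3, SE 0.54) to 0.31 (Ndufb10, SE 0.53), 11 of them below 0. In the fit without control replicates 1 and 3, 6 of the 12 were below 0, Ndufb3 was -0.018 and Ndufb10 was 0.30. Ndufab1, which serves both fatty acid synthesis and complex I, ran from 16.7 CPM to 176 CPM in control embryos. Control replicate 3 was the highest for it, and its estimate was -0.58 (SE 0.34) with all embryos and -0.13 without control replicates 1 and 3.

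Members not tested were spread over the same roles. They were 4 of the 8 Q module members, 2 of the 8 of the N module, 7 of the 19 of the membrane arm, 3 of 8 assembly factors, Ndufa4l2, and 3 pseudogenes or paralogues (Ndufb4c, Ndufa11b and Ndufs5-ps) with 21 counts or fewer in all. Ndufb5, a distal membrane arm subunit, had the most counts of these (433), at 12.1 ± 9.27 CPM in control (SD, n = 16) and 8.30 ± 8.73 CPM in SER embryos (SD, n = 15). It shares 616 exon bases with Mrpl47 on the opposite strand. Ndufa6, an accessory subunit that binds the acyl carrier protein Ndufab1, had 375 counts, at 13.0 ± 18.3 CPM in control (SD, n = 16) and 6.995 ± 5.98 CPM in SER embryos (SD, n = 15). The fit of all 17803 genes with a count, which includes these members, called 0 of them and 504 genes in all. Exons of 19 members overlap another gene, 17 of them on the opposite strand, and Ndufb4, Ndufa11 and Ndufs5 have similar copies in the table, so their counts are less certain.

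Levels per length differed widely between members. After Ndufb6 (169 CPM per kb of exon) came Ndufa2 (157), Ndufa11 (78.4) and Ndufa1 (69.0). The lowest tested members were Ndufs1 (1.86), Ndufb7 (4.29) and Ndufs4 (4.34 CPM per kb). Subunits of the finished complex are present in equal numbers, apart from the acyl carrier protein. The exon length is the union over all annotated transcripts, which lowers the level per kb of genes with long alternative exons, as in the 8086 bases of Ndufs1. The counts also merge 5′ reads with internal reads. Reads from the 5′ end need not grow with length, so division by length can raise short genes. Not divided by length, the mean over all embryos was 155 CPM for Ndufaf4 and 111 CPM for Ndufb6.

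The tested members varied together from embryo to embryo. After removal of the group means, the median Pearson correlation over 31 embryos was 0.28 for the 406 pairs of members, of which 318 were positive, and 0.01 over all pairs of tested genes. Without control replicates 1 and 3 the median was 0.18 over 29 embryos. The pairs share the embryos and their depth, as all pairs of genes do, and many share short exons. The part of exon length in these values was not tested. The highest pair was Ndufa2 with Ndufaf5, at 0.80, followed by Ndufb3 with Ndufa2, at 0.76. Ndufa10, Ndufaf4 and Ndufv1 ran against the rest, with median correlations to the other members of -0.34, -0.13 and -0.10.

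**Figure D4:**
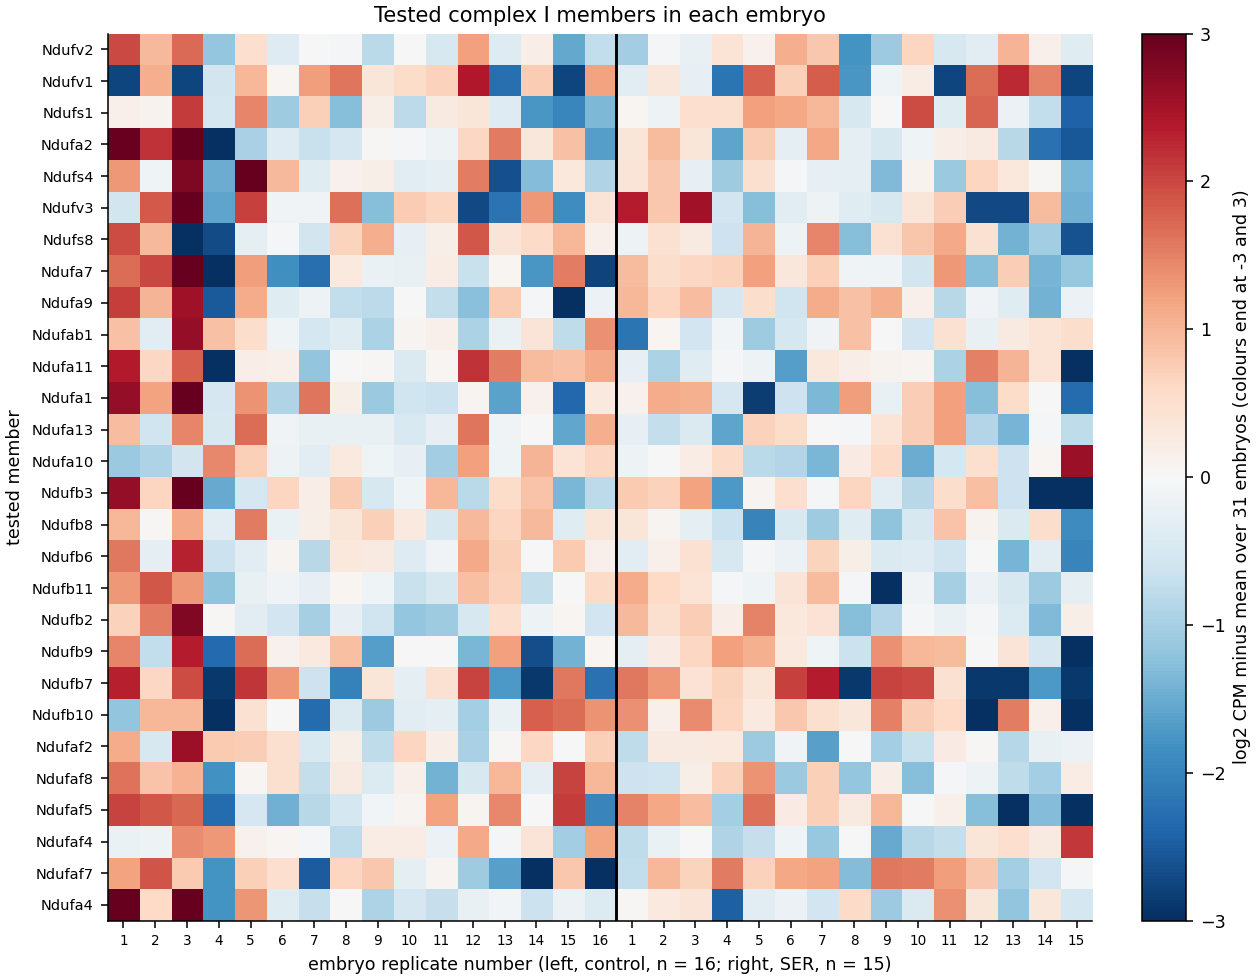
The log2 CPM of 28 tested members (rows, by role) in each embryo (columns, control left, n = 16, and SER right, n = 15) minus its mean over the 31 embryos, with colours ending at -3 and 3. Control replicates 1 and 3 are red in most rows and blue for Ndufv1 and Ndufa10, while SER replicate 15 is blue in most rows and red for Ndufa10 and Ndufaf4.

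Control replicate 3 was the highest of all embryos for 12 of the 29 tested members and among the highest pair for 16, and control replicate 1 was among the highest pair for 12. SER replicate 15 had 0 counts for 7 of the 29 members, more than any other embryo, and was the highest embryo for Ndufaf4 and Ndufa10. Its oocyte markers were the highest of the SER embryos, at 8204 CPM. Between embryos of a group, the SD of log2 CPM was larger in control for 20 of 29 members (69.0%), against 54.2% of all tested genes. The median SD of the members was 1.44 in control and 0.99 in SER embryos. Without control replicates 1 and 3 the control median was 1.06, and 10 of 29 members (34.5%) had the larger SD in control, against 38.6% of all tested genes.

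Other complex I genes, with symbols outside the Nduf families, gave no called gene either. Of 21 listed, 13 were in the table and 6 were tested, 0 of them with an adjusted p under 0.1. Of these 6, 2 had an estimate below 0 and 4 above 0, with a median of 0.17. The lowest p was that of Tmem186, an assembly factor of the membrane arm, which was at 13.5 ± 10.8 CPM in control (SD, n = 16) and 28.3 ± 22.9 CPM in SER embryos (SD, n = 15). On the log2 scale it was higher in SER by 1.06 (SE 0.55, adjusted p = 0.869 by edgeR). The 7 subunits encoded by mitochondrial DNA were not analysed here.

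Nuclear genes of complexes II to V, the other enzymes of oxidative phosphorylation, were read from the same fit. Of 34 tested, 27 had an estimate below 0, with a median of -0.39, 4 had an unadjusted p under 0.05 and 0 were called. With both high controls left out, 19 of 34 were below 0 and the median was -0.022. The median was -0.07 for the 4 genes of complex II, -0.19 for 8 of complex III, -0.58 for 10 of complex IV and -0.35 for 12 of complex V. All 10 tested genes of complex IV, cytochrome c oxidase, were below 0, with the lowest adjusted p, 0.242 by edgeR, for Cox6c. Without these controls 8 of the 10 were below 0, with a median of -0.096. Under limma voom 2 of the 10 were below 0, with a median of 0.23. For complexes II to V together voom put 11 of 34 below 0, with a median of 0.20. The sum over complexes II to V was also highest in control replicate 3, at 9761 CPM. Its mean was 4100 CPM in control embryos, 3409 CPM without control replicates 1 and 3, and 3229 CPM in SER embryos, and the group medians with all embryos were 3369 and 3375 CPM. Whether complex I differed from the other complexes was not tested.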

How the data were processed

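Single-embryo libraries were made by a modified Smart-seq3 protocol. The authors handled 5′ reads, which carry molecular identifiers, apart from internal reads. Alignment was by STAR, duplicates were taken out by UMI-tools for the former and Picard for the latter, and featureCounts made the gene counts. The deposited values are these raw counts, without normalization, and per the labels the build is mm10. Tool versions and the strand setting are not given in the sources used here. Internal reads carry no identifier, so intervals and floors cover counting error only. The study used ComBat-seq before DESeq2. ComBat-seq needs the batch of each embryo, which the labels do not name, so that correction was not repeated. After the correction, the paper reports genes that differ between the groups. Among those lower in SER embryos it reports an enrichment of mitochondrial annotations, without showing the values. The edgeR fits here lack that correction, so their lack of called members does not test that result.

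From the deposited counts, 8571 genes kept by filterByExpr (minimum count 10, minimum total 15) were tested in edgeR 4.0.16 (R 4.3.3) by the quasi-likelihood test with TMM, no covariates, Benjamini-Hochberg adjustment and a threshold of 0.1. The SE is the log2 fold change over the square root of F. Labels do not say which embryos share a batch, dam, sire or insemination, so p-values measure the spread between these embryos. Embryos that share these need not be independent. Each n, SE and p-value therefore counts embryos and not repeats of the sperm treatment, which were fewer. No libraries were identical. Log2 CPM for spread and correlation used a prior count of 2. GENCODE vM21 (GRCm38) gave exon lengths and positions, matched for 48 of 49 members, and promoters were from RefSeq. The fit was tested on simulated data.

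The gene family and the lists (roles, other complex I genes, complexes II to V, markers, motifs) were chosen with earlier results of these data known. Named with values were core subunits, the 6 lowest p, the 4 highest and 3 lowest tested per kb, the 2 nearest to no change and the 4 untested members with most counts. Ndufaf4, Ndufaf7, Ndufv3, Ndufab1, Ndufb3, Ndufb10, Tmem186 and Cox6c were named after their values were seen. Alternatives were DESeq2 size factors, DESeq2 1.42.0, limma voom 3.58.1, 2 other filters, sva 3.50.0 with 5 surrogate variables, 3 estimated clusters of embryos, library size as a covariate, thinning, removal of an exon length trend, the replicate number as a block and leaving out each embryo. Values of 1 member are not reported here, and it stays in the counts and medians over members.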

Additional observations from a re-analysis of the deposited data

How the results depend on the processing

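Over the alternatives of normalization, filter, covariates and thinning, edgeR called 0 complex I members, and DESeq2 called 0. Limma voom called 3 and turned the median of the members from -0.42 to 0.039. Other settings kept the median below 0. It was -0.59 with library size as a covariate and -0.28 with 5 surrogate variables. With 3 estimated clusters it was -0.53, and 25 of 29 members were below 0. With thinned counts it was -0.46, and 19 of the 22 members tested there were below 0. Of all tested genes, where edgeR called 0, DESeq2 called 49, voom 848, no filter 504 of 17803, 5 surrogate variables 61 and 3 estimated clusters 24. Leaving out 1 embryo at a time gave 0 called members and 0 called genes each time, with medians of the members from -0.57 to -0.31. Members with an unadjusted p under 0.05, 6 with all embryos, were 3 without control replicate 3, 4 without control replicate 1 and 9 without control replicate 4. For all genes the 491 became 792 without SER replicate 15. The fit without control replicates 1 and 3 was chosen after seeing the data.

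Of the 29 tested members, 14 turned direction under voom, 10 without control replicates 1 and 3 and 4 with the exon length trend removed, none of them called. Under voom Ndufv1 was -0.41, Ndufv2 0.091, Ndufs8 0.13, Ndufa4 0.087, Ndufa2 0.054, Ndufa1 0.25, Ndufa10 -0.19, Ndufa7 0.88, Ndufb2 0.73, Ndufb9 0.56, Ndufa9 0.51, Ndufaf5 0.39, Ndufa13 0.039 and Ndufv3 0.016. Without control replicates 1 and 3, Ndufv1 was -0.11, Ndufv2 0.12, Ndufa4 0.16, Ndufa1 0.067, Ndufa10 -0.042, Ndufa9 0.47, Ndufb9 0.39, Ndufb2 0.34, Ndufa7 0.18 and Ndufv3 5.3e-05. With the exon length trend removed Ndufa1 was 0.10, Ndufb9 0.36, Ndufa9 0.045 and Ndufb11 0.0043. For the other settings, turns are given for members named by the rule. Under DESeq2 Ndufa4 was 0.14. With surrogate variables Ndufv1 was -0.39, Ndufa1 0.11, Ndufb7 -0.66 and Ndufa10 -0.17, and with estimated clusters Ndufb7 was -0.50 and Ndufa10 -0.070. With library size as a covariate Ndufa10 was -0.11. Leaving out 1 embryo moved Ndufv1 between -0.14 and 0.35, Ndufb7 between -0.13 and 0.26 and Ndufa10 between -0.39 and 0.18. The cause was not tested.

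The 15 pairs of embryos with the same replicate number correlated at -0.37 to 0.49 after removal of the group means, 8 of them over 0.1, so the numbers were not taken to pair embryos, and 2 of 15 SER embryos correlated best with the control of their own number. With the replicate number as a block, over the 15 pairs, 0 members were called and the median of the members was -0.31, with Ndufb7 at -0.14 and Ndufa10 at -0.12. With the block and the exon length trend removed the median was -0.10, Ndufa1 was 0.32, Ndufb7 -0.17 and Ndufa10 -0.10. Depth limits the 20 untested members.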
